A study of Mus musculus with 16 samples.

Results

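Pim1, Pim2, Cish, Socs2 and Socs3 are genes known to be induced by cytokine receptors through the JAK kinases and the STAT transcription factors. They were picked by symbol, each from a single row of the deposited tables, and make up 5 of the 24469 gene symbols there. Their RNA was read in natural killer (NK) cells, CD8+ T cells, Foxp3+ T cells and macrophages, in tumor and in spleen, under 4 conditions.

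The data are single-cell RNA libraries from C57BL/6 mice that carried MC38 colon carcinoma tumors, with tumors and spleens harvested on day 19. The mice were *Aire*+/+ or *Aire*-/- and received either an isotype control antibody or an antibody to PD1 (anti-PD1), which gives the 4 conditions. From each condition and tissue, CD45+ cells and CD8+ cells were sorted and sequenced separately, so the 16 libraries hold 1 library per condition, tissue and sort. Each library pools the tissue of several animals, so no value below has a spread between mice. Aire is the thymic regulator that lets developing T cells meet proteins of other tissues, and *Aire*-/- mice lack it in every cell from birth.

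As background, a cytokine such as IL-2, IL-15, IL-6 or an interferon brings JAK kinases together at its receptor, and the JAKs phosphorylate STAT proteins, which enter the nucleus and switch on their targets. Among these targets are genes of the pathway's own brakes: CIS, the product of Cish, and the SOCS proteins bind activated receptors or JAKs and damp the signal. Pim1 and Pim2 encode serine/threonine kinases, also STAT targets, that are active as soon as they are translated and favor survival and growth of lymphocytes.

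Each library held 1856 to 2944 cells after the quality filter, and 10927391 to 38930017 UMIs (counted RNA molecules) in those cells. The median cell held 8883 to 12252 UMIs in tumor libraries and 4414 to 6405 in spleen libraries. Aire itself gave 0 to 6 UMIs per library in both genotypes, too few to check the genotype. Any pair of libraries shared 2 to 18 cell barcodes (median 7 over 120 pairs).

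Cells were assigned to classes by their own UMIs of lineage genes, and levels are given as CPM, the UMIs of a gene per 1000000 UMIs of all gated cells of that class in a library. Lists of 4 values start with the *Aire*+/+ libraries, and within each genotype isotype comes before anti-PD1. Tumor NK cells numbered 99, 129, 147 and 242, tumor CD8+ T cells of the CD8+ sort 2462, 2102, 1762 and 2144, tumor Foxp3+ T cells 129, 81, 36 and 71, and tumor macrophages 1064, 711, 494 and 178. In spleen there were 79, 47, 55 and 52 NK cells, 2766, 2832, 2268 and 2519 CD8+ T cells and 31, 35, 50 and 52 Foxp3+ T cells. The macrophage gate, set on the complement genes C1qa, C1qb and C1qc, found 2 to 8 cells per spleen library, so macrophages are given in tumor only.

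The gated classes carried the markers of their names, which in part follows from the gates, because the lists hold gate genes. These are Ncr1 and Klrb1c for NK cells, Foxp3 for Foxp3+ T cells, and the C1q genes, Csf1r and Adgre1 for macrophages. In tumor macrophages the C1q genes alone were at 11669, 12809, 10533 and 8792 CPM. The lymphocyte gates in turn admit fewer than 10 C1q UMIs per cell. The 8 NK markers, of which Nkg7 was the most abundant, summed to 5430.3 to 6598 CPM in tumor NK cells and 10766 to 12804 CPM in splenic ones. The Foxp3+ T cell markers summed to 4982 to 6327 CPM in tumor Foxp3+ T cells, led by Ctla4 or Tnfrsf18. The 8 macrophage markers summed to 17851, 20377, 15735 and 12945 CPM in tumor macrophages. Outside that class the same list summed to 28.2 to 70.8 CPM in tumor NK cells, 11.8 to 36.6 CPM in tumor CD8+ T cells and 356, 505, 228 and 46.2 CPM in tumor Foxp3+ T cells. Splenic Foxp3+ T cells held 0 to 4.06 CPM of it, so some macrophage RNA was present in the tumor Foxp3+ T cell counts.

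The first comparison asks how tumor and splenic cells of the same class differ, with the 4 conditions as blocks. For flow cytometry, the paper dissociated tumors with enzymes and dispersed spleens mechanically. If the libraries were prepared in the same way, tissue and preparation cannot be told apart in any class. In CD8+ T cells, 4 of the 5 genes were higher in tumor and 1, Pim2, was lower. Cish, the brake on IL-2 and T cell receptor signaling, stood at 240.3, 279.7, 246 and 284 CPM in tumor and 6.44, 7.74, 9.10 and 10.6 CPM in spleen. Socs2, best known as the brake on growth hormone signaling, stood at 21.2, 19.7, 30.2 and 37.2 CPM in tumor and 0.798, 0.823, 1.39 and 1.62 CPM in spleen. For both genes every tumor library lay more than 10 times above every spleen library. Pim1 was at 135, 181, 155 and 283 CPM in tumor and 75.7, 70.1, 75.6 and 75.8 CPM in spleen, and the *Aire*-/- anti-PD1 tumor was the highest. Socs3, the brake on IL-6 family receptors, was at 60.5, 61.4, 78.2 and 77.5 CPM in tumor and 53.7, 42.1, 38.8 and 48.6 CPM in spleen, a narrow gap. Pim2 went the other way, with 50.5, 47.4, 56.5 and 65.3 CPM in tumor and 121, 100.1, 104 and 90.7 CPM in spleen.

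The tissue test, edgeR's quasi-likelihood test with Benjamini-Hochberg adjusted p, fits a single fold change over the conditions and does not test each condition. By edgeR Cish rose in tumor CD8+ T cells (log2 fold change 4.89 ± 0.09 (SE), adjusted p = 2.5e-08). In the same edgeR test Socs2 rose (log2 fold change 4.47 ± 0.10 (SE), adjusted p = 3.9e-08). Pim1 rose by edgeR (log2 fold change 1.20 ± 0.16 (SE), adjusted p = 0.000224), and so did Socs3 (log2 fold change 0.51 ± 0.12 (SE), adjusted p = 0.00619). Pim2 fell by edgeR (log2 fold change −1.01 ± 0.12 (SE), adjusted p = 0.000147). The CPM of each gene had the direction of the fit in 4 of 4 conditions. Tumor and spleen values did not overlap for any of the 5 genes. Against these counts, 37.6% of the 11337 genes tested were called higher in tumor and 39.8% lower. Tumor libraries lay wholly above spleen libraries for 38.7% of genes and wholly below for 32.8%. The comparison thus called most genes in one direction or the other, and the counts of 4 of 5 higher and 1 of 5 lower are read against that. The median fitted log2 fold change over all genes was −0.03, which the TMM scaling holds near 0. The error here is the disagreement of the tissue difference between conditions, not the spread between mice.

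Other changes accompanied these in CD8+ T cells. Of the 16 immediate early and dissociation genes, 14 rose and 0 fell by the same edgeR test (median log2 fold change 2.40), and their summed level was 5383, 6370.4, 5606 and 6639 CPM in tumor against 862 to 974 CPM in spleen. All 10 cell cycle genes tested rose (median 3.19), and 29.9, 22.2, 21.5 and 19.3% of tumor cells were cycling against 0.795, 0.388, 2.03 and 1.19% in spleen. Macrophage markers rose too, 6 of 6 tested (median 4.51), from 1.65 to 1.88 CPM in sum in spleen to 11.8 to 36.6 CPM in tumor, and so did 3 of 3 monocyte markers (median 1.39), led by Ly6c2. Of the Foxp3+ T cell markers 4 of 4 tested rose (median 4.28), with sums of 64.5 to 76.4 CPM in spleen and 1064 to 1220.5 CPM in tumor, led in tumor by Ctla4 and with Foxp3 and Cd4 kept at 0 by the gate. Of the NK markers 6 of 7 rose and 1 fell (median 1.99), led by Nkg7, with sums of 995 to 1393 and 5064 to 6046 CPM. The part of the immediate early genes and of these markers in the results, the narrow Socs3 difference among them, was not tested. The CD8+ T cell gate takes naive and activated cells alike. The paper reports little of the naive marker L-selectin and much Cd69 in tumor CD8+ T cells. The part of such a difference in makeup in the tissue results was not tested either. Without the cycling cells, the log2 fold change of Cish was 5.05 and that of Socs2 4.63.

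In NK cells Cish and Socs3 were higher in tumor, Pim1 and Pim2 were not called in either direction and Socs2 was not tested. Cish, which restrains IL-15 signaling in NK cells, was at 151, 160.5, 187 and 147 CPM in tumor and 6.35, 14.3, 13.8 and 21.7 CPM in spleen. The splenic values rest on 2 to 5 UMIs per library. Socs3 was at 125, 143, 186 and 183 CPM in tumor and 41.3, 33.4, 31.1 and 43.4 CPM in spleen, again without overlap. By edgeR's test Cish rose (log2 fold change 3.94 ± 0.25 (SE), adjusted p = 1.1e-10) and so did Socs3 (log2 fold change 2.44 ± 0.20 (SE), adjusted p = 4.7e-09), both with higher CPM in tumor in 4 of 4 conditions. That is 2 of the 4 members tested higher and 0 lower, where 21.8% of the 7058 genes tested were higher and 18.6% lower, and 12.2% were higher without TMM scaling. Tumor libraries lay wholly above spleen libraries for these 2 genes and for 11.7% of all genes tested, and wholly below for 0 of the 4 and for 33.8% of all genes. Socs2 was too low for the test, with 12.3, 5.59, 10.1 and 15.5 CPM in tumor and 6.35, 19.1, 3.45 and 0 CPM in spleen, where the last library's 0 UMIs allow up to 13.02 CPM.

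Pim1 in NK cells was at 201, 185, 225 and 359.6 CPM in tumor and 283, 291, 242 and 329.9 CPM in spleen, so that it was higher in splenic NK cells in 3 of 4 conditions. Pim2 was at 76.95, 77.7, 106 and 144 CPM in tumor and 108, 115, 183 and 174 CPM in spleen, lower in tumor in 4 of 4 conditions. After the TMM scaling of edgeR neither was called. Pim1 had log2 fold change 0.10 ± 0.14 (SE), adjusted p = 0.625 with a CPM higher in tumor in 1 of 4 conditions, and Pim2 had log2 fold change −0.16 ± 0.15 (SE), adjusted p = 0.425 (edgeR). The scaling matters here because the median gene of NK cells was shifted by a log2 ratio of −0.37 between tumor and spleen CPM. On library totals without TMM, an alternative chosen after seeing the data, Pim1 turned to −0.28 (adjusted p = 0.104) and Pim2 to −0.54 (adjusted p = 0.00693) by edgeR. Over 11 alternatives Pim1 ran from −0.28 to 0.48 and Pim2 from −0.54 to 0.58, and Pim2 was called lower without TMM and higher when cells were thinned to 2000 UMIs. Pim1 was called higher when thinned and when cycling cells were left out (0.45, adjusted p = 0.0197, and 0.48, adjusted p = 0.00275, edgeR). No direction is therefore given for either Pim kinase in NK cells.

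Immediate early genes moved with the tissue in NK cells as well: 13 of 14 tested rose and 0 fell by edgeR (median log2 fold change 2.03). So did 9 of 9 cell cycle genes tested (median 1.83), and 20.2, 21.7, 14.3 and 13.6% of tumor cells were cycling against 2.53, 0, 3.64 and 0% in spleen. Without the cycling cells Cish and Socs3 were both still called higher by edgeR, Socs3 with a log2 fold change of 2.62. Of 4 markers of myeloid RNA, the C1q genes stood at 0.0567 to 0.116% of their macrophage level in tumor NK cells, Apoe at 0.104 to 1.37%, Ms4a7 at 0.0703 to 0.692% and Lyz2 at 1.41 to 7.98%. Socs3 stood at 12.7 to 31.0% of its own macrophage level, above all 4 markers in every library. Markers of other classes also rose in tumor NK cells by edgeR: 2 of 2 dendritic cell markers tested (median log2 fold change 5.78) and 4 of 4 Foxp3+ T cell markers tested (median 3.70), with Cd4 at 0 in all 4 tumor libraries. Of the 8 NK markers 2 rose, Klrd1 and Prf1, and 6 fell: Ncr1, Klrb1c, Klre1, Klrk1, Eomes and Nkg7 (median −0.62). Over all genes tested 21.8% rose and 18.6% fell. The part of these markers and of the immediate early genes in the Socs3 and Cish differences was not tested. The C1q value is held down by the gate, which admits fewer than 10 C1q UMIs per cell.

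In Foxp3+ T cells all 4 members that could be tested were higher in tumor. Pim1 was at 512, 583, 635 and 759 CPM in tumor and 311, 283, 225 and 293 CPM in spleen. Cish was at 281, 278, 264 and 320.2 CPM in tumor and 87.2, 205, 76.5 and 85.4 CPM in spleen, where the *Aire*+/+ anti-PD1 library stood above the rest. Socs2 was at 92.5, 105, 98.4 and 119 CPM in tumor and 16.4, 22.2, 36.2 and 36.6 CPM in spleen. These regulatory T cells depend on IL-2, and among the 4 gated classes they held the highest Socs2 in tumor in every condition. Socs3 was at 144, 120.1, 127 and 117 CPM in tumor and 49.1, 55.5, 56.4 and 93.5 CPM in spleen. By edgeR's test Socs2 rose in 4 of 4 conditions (log2 fold change 1.90 ± 0.25 (SE), adjusted p = 3.2e-05) and Pim1 in 4 of 4 (log2 fold change 1.20 ± 0.16 (SE), adjusted p = 2.9e-05). Cish rose in 4 of 4 conditions by edgeR (log2 fold change 1.42 ± 0.23 (SE), adjusted p = 0.000195) and Socs3 in 4 of 4 (log2 fold change 1.01 ± 0.22 (SE), adjusted p = 0.00237). Tumor lay wholly above spleen for these 4 genes.

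The count of 4 of 4 stands against 18.1% of the 4369 genes tested that were higher in tumor Foxp3+ T cells, 14.8% that were lower, and 16.5% whose tumor libraries lay wholly above spleen. With 31 to 52 splenic cells per library, a gene had to be well counted to be tested, and Pim2, at 7.83, 4.76, 7.77 and 24.8 CPM in tumor and 49.1, 27.7, 28.2 and 8.13 CPM in spleen, did not pass the filter. Macrophage RNA moved with the tissue in this class, as given above. In tumor Foxp3+ T cells Apoe stood at 0.207 to 3.76% and Ms4a7 at 0.224 to 3.96% of the macrophage level, and Lyz2 at 0.206 to 23.6%, while Socs3 stood at 13.4 to 19.9% of it. Immediate early genes were higher in tumor here too, 12 of 13 by edgeR with 1 lower, and so were 6 of 7 cell cycle genes with 0 lower (median 1.47). Cycling cells made up 23.3, 27.2, 27.8 and 12.7% in tumor and 3.23, 2.86, 2 and 5.77% in spleen. Without them the log2 fold changes were 1.37 for Pim1, 1.53 for Cish, 2.01 for Socs2 and 1.10 for Socs3. Markers of other classes also moved by edgeR, in lists with 1 gene tested. Nkg7 (NK), Ccr2 (monocyte) and Bst2 (plasmacytoid dendritic cell) rose, with log2 fold changes of 3.31, 1.85 and 2.56. The B cell marker Cd79b fell (−2.26), and the dendritic cell marker Ccr7 was not called (0.57). The part of myeloid RNA, of these markers and of the immediate early genes in the Socs3 and Pim1 differences was not tested.

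The rest of the pathway, from lists of its cytokines, receptors, kinases, STATs and inhibitors, shows which other brakes moved with the members (edgeR, tumor over spleen, log2 fold changes). Socs1, the strong JAK inhibitor induced by interferons, rose in all 3 classes, by 2.01 in CD8+ T cells, 2.13 in NK cells and 1.88 in Foxp3+ T cells. Of the 13 inhibitors listed, Socs1 among them, 7 of 13 tested rose and 5 fell in CD8+ T cells, 2 of 10 rose and 4 fell in NK cells, and 1 of 6 rose and 0 fell in Foxp3+ T cells. The shares over all genes, higher and lower, were 37.6% and 39.8%, 21.8% and 18.6%, and 18.1% and 14.8% in the same order of classes. The medians of the inhibitor list were 0.28, −0.21 and −0.21. Pim3, the remaining Pim kinase, rose by 1.88 in CD8+ T cells and 1.56 in NK cells, and had 0.55 in Foxp3+ T cells (edgeR adjusted p = 0.265, not called).

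Receptor chains moved both ways, also within a family. The IL-2 receptor alpha chain Il2ra rose by 5.62, 5.94 and 2.63 in CD8+ T, NK and Foxp3+ T cells, and the shared beta chain Il2rb by 1.99, 0.36 and 0.47 (edgeR log2 fold changes). In NK cells the Il2rb value is of the size of the TMM scaling, and its CPM overlapped between tumor (934 to 1204) and spleen (1004 to 1161). The IL-6 receptor chain Il6ra fell by 4.18 in CD8+ T cells and fell by 2.52 in Foxp3+ T cells, and its partner Il6st fell by 3.04 in CD8+ T cells and was not called in Foxp3+ T cells. Of the receptors tested, 11 of 19 rose and 7 fell in CD8+ T cells, 5 of 14 rose and 6 fell in NK cells, and 5 of 15 rose and 2 fell in Foxp3+ T cells. The 5 in NK cells include Il2rb and Il2rg, and the CPM of Il2rg (863 to 942 in tumor, 886 to 985 in spleen) overlapped too. The medians of the receptor list were 0.72, 0.19 and 0.18.

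Of the 11 JAKs and STATs, 5 rose and 4 fell in CD8+ T cells, 5 rose and 4 fell in NK cells, and 5 rose and 5 fell in Foxp3+ T cells. Over all genes 37.6, 21.8 and 18.1% were higher and 39.8, 18.6 and 14.8% lower in these classes. The counts of JAKs and STATs, of receptors above and of the lists below are read against those shares. Stat3 rose by 2.01, 1.69 and 0.99 in the same order of classes. Jak3, the kinase of the common gamma chain, rose in the 3 classes and Jak1, its partner, fell in the 3 classes by edgeR. Of the STATs that carry IL-2 signals, Stat5b fell by 0.21 in CD8+ T cells and fell by 0.75 in Foxp3+ T cells, and Stat5a fell by 1.12 in the latter. Neither was called in NK cells. Other known STAT targets moved both ways, with 4 of 10 up and 2 down in CD8+ T cells, 3 of 9 up and 2 down in NK cells, and 4 of 8 up and 1 down in Foxp3+ T cells. Bcl2l1, which encodes the survival protein BCL-XL, rose by 1.98 in CD8+ T cells and 2.03 in Foxp3+ T cells, while its relative Bcl2 fell by 0.56 in the former and fell by 3.83 in the latter. Among the cytokines, 4 of 6 tested rose in CD8+ T cells, with Ifng at 6.86 and Il2 at 4.32. In NK cells 2 of 2 rose, Ifng and Osm, and in Foxp3+ T cells 2 of 2 rose, Il10 and Csf1.

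**Figure D1:**
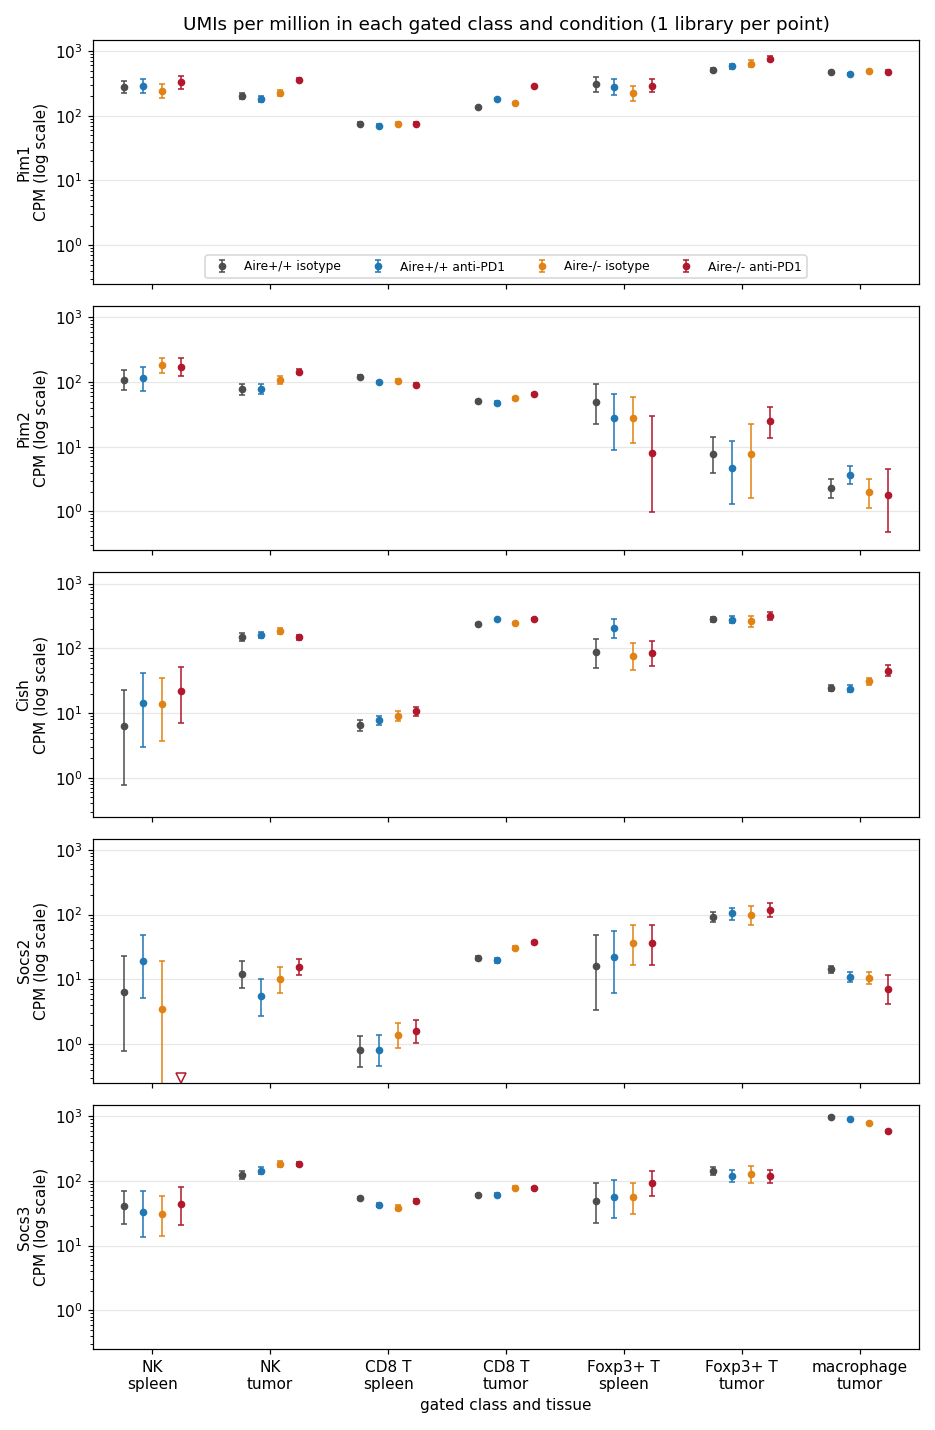
CPM (log scale) of the 5 genes in each gated class and tissue, where each point is 1 library, colored by condition, bars are exact Poisson 95% intervals and the open triangle marks a library with 0 UMIs. Cish and Socs2 in CD8+ T cells, here of the CD8+ sort, lie far higher in tumor than in spleen, Pim2 lies lower, and Socs3 is highest in macrophages at 588 to 980.4 CPM.

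The genes differed in where they were most abundant among the 4 gated classes, given here as the range over the 4 conditions and beside CD4+ T cells without Foxp3 where these ranked high. In this ranking CD8+ T cells are those of the CD8+ sort and the other classes those of the CD45+ sort. Pim1 was highest in tumor Foxp3+ T cells (512 to 759 CPM), which lay wholly above tumor macrophages (442 to 489). Tumor CD4+ T cells without Foxp3 (448 to 571) overlapped both. Splenic NK cells (242 to 329.9), splenic Foxp3+ T cells (225 to 311), tumor NK cells (185 to 359.6) and tumor CD8+ T cells (135 to 283) overlapped one another, and splenic CD8+ T cells (70.1 to 75.8) lay below them all. Pim2 had another order, with the highest levels in splenic NK cells (108 to 183), splenic CD8+ T cells (90.7 to 121) and tumor NK cells (76.95 to 144), which overlapped. It was lowest in tumor macrophages (1.79 to 3.69), below tumor Foxp3+ T cells (4.76 to 24.8).

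Cish followed the lymphocytes of the tumor. It was highest in tumor Foxp3+ T cells (264 to 320.2 CPM) and tumor CD8+ T cells (240.3 to 284), whose ranges overlapped each other and that of tumor CD4+ T cells without Foxp3 (212 to 389), and next in tumor NK cells (147 to 187), which overlapped splenic Foxp3+ T cells (76.5 to 205). Tumor macrophages (23.9 to 45.1) came next, and splenic NK (6.35 to 21.7) and CD8+ T cells (6.44 to 10.6) overlapped at the bottom. Socs2 was highest in tumor Foxp3+ T cells (92.5 to 119), above the other 3 gated classes, and overlapped tumor CD4+ T cells without Foxp3 (21.1 to 112). Splenic Foxp3+ T cells (16.4 to 36.6) and tumor CD8+ T cells (19.7 to 37.2) overlapped below it, as did tumor NK cells (5.59 to 15.5) and macrophages (7.15 to 14.4) below those, and splenic CD8+ T cells (0.798 to 1.62) had little. Socs3 was highest in tumor macrophages, at 588 to 980.4 CPM against 198 to 366 in tumor CD4+ T cells without Foxp3, 125 to 186 in tumor NK cells, 117 to 144 in tumor Foxp3+ T cells and 60.5 to 78.2 in tumor CD8+ T cells, which overlapped splenic Foxp3+ T cells (49.1 to 93.5). Splenic CD8+ T cells (38.8 to 53.7) overlapped these splenic Foxp3+ T cells as well as splenic NK cells (31.1 to 43.4), which reached lowest. The sort shifted the Socs3 level: tumor CD8+ T cells of the CD45+ sort held 81.0 to 97.8 CPM, above their range in the CD8+ sort.

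The next comparisons ask what the genotype and anti-PD1 did to these genes inside the tumor. With 1 library per condition no test between conditions was run. Ratios of CPM are given with a conditional exact 95% interval that covers counting error only, and a gene is called past the fold at a ratio of at least 1.5 or at most 1/1.5 with at least 50 UMIs over the pair. Whether a ratio in 1 genotype or treatment differs from that in the other was not tested.

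In tumor NK cells the *Aire*-/- anti-PD1 library held the most Pim1 and Pim2. Pim1 was at 201 (179 to 225), 185 (165 to 206), 225 (204 to 248) and 359.6 (339 to 381) CPM, where the interval of the last lies above the other intervals. Pim2 was at 76.95 (63.4 to 92.5), 77.7 (65.3 to 91.8), 106 (92.0 to 122) and 144 (131 to 158) CPM. Under anti-PD1 the *Aire*-/- over *Aire*+/+ ratio was 1.95 (1.72 to 2.21) for Pim1, 1.85 (1.53 to 2.25) for Pim2 and 2.77 (1.39 to 6.12) for Socs2, the last from 51 and 10 UMIs and between 1.53 and 5.86 under alternative settings. These are 3 of 5 members past the fold, where 9.02% of the 7017 genes counted were. Socs2 reached the 50 UMIs only through the *Aire*-/- anti-PD1 library, and without it 2 of 4 were past the fold. Cish and Socs3, the genes that set tumor NK cells apart from splenic ones, stayed within the fold at 0.918 (0.792 to 1.07) and 1.28 (1.10 to 1.48). In splenic NK cells 1 of the 2 members counted, Pim2, was past the fold between genotypes under each antibody, where 12.8% of genes were for isotype and 11.8% for anti-PD1. Its ratios were 1.69 (1.08 to 2.69) and 1.51 (0.891 to 2.63), those of Pim1 0.855 (0.616 to 1.18) and 1.13 (0.798 to 1.61), from 24 to 89 UMIs per library.

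Under isotype, 0 of 4 members counted in NK cells were past the fold between genotypes, where 12.6% of genes were. Socs3 came nearest with a ratio of 1.49 (1.24 to 1.79). Anti-PD1 over isotype in *Aire*+/+ mice put 0 of 4 past the fold, where 8.82% of genes were. In *Aire*-/- mice it put 2 of 5 past the fold, where 7.82% of genes were: Pim1 at 1.60 (1.43 to 1.79) and Socs2 at 1.54 (0.891 to 2.75), whose interval spans 1. Without Socs2 it was 1 of 4. The Pim1 ratio was 1.49 when cells were thinned to 2000 UMIs and 1.49 without cycling cells, both within the fold. Immediate early genes were also highest in the *Aire*-/- anti-PD1 NK library, at 4589, 5187, 5059 and 6279 CPM in sum, led by Junb, and cycling NK cells made up 20.2, 21.7, 14.3 and 13.6%. The 7 dendritic cell markers summed to 89.2, 63.2, 35.0 and 110.3 CPM in tumor NK cells, led by Ccr7 or Fscn1, with Xcr1 and Cd209a at 0 in all 4 libraries. The part of the immediate early genes and of the dendritic cell markers in the Pim1 and Pim2 ratios was not tested. Without cycling cells the *Aire*-/- over *Aire*+/+ ratio of Pim1 under anti-PD1 was 1.62 and that of Pim2 1.53.

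In tumor CD8+ T cells of the CD8+ sort, Pim1 was again highest in the *Aire*-/- anti-PD1 library, at 135 (131 to 139), 181 (176 to 187), 155 (150.01 to 161) and 283 (276 to 290.4) CPM. Socs2 was at 21.2 (19.7 to 22.9), 19.7 (18.1 to 21.6), 30.2 (27.9 to 32.7) and 37.2 (34.7 to 39.8) CPM, higher in both *Aire*-/- libraries than in either *Aire*+/+ library. Under anti-PD1 the *Aire*-/- over *Aire*+/+ ratio was 1.56 (1.504 to 1.62) for Pim1 and 1.88 (1.68 to 2.11) for Socs2, 2 of 5 members past the fold where 5.02% of the 10548 genes counted were. With cells thinned to 2000 UMIs Pim1 was within the fold at 1.47. In *Aire*-/- mice, anti-PD1 over isotype gave 1.82 (1.75 to 1.90) for Pim1, the 1 member of 5 past the fold where 3.53% of genes were. The remaining pairs put 0 of 5 past the fold: genotype under isotype, where 5.4% of genes were, and anti-PD1 in *Aire*+/+ mice, where 3.95% were. Pim1 in that last pair was at 1.35 (1.29 to 1.40).

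Cish differed little between conditions in CD8+ T cells, from 240.3 to 284 CPM, although it differed most between the tissues. Its genotype ratios were 1.03 (0.990 to 1.06) for isotype and 1.01 (0.980 to 1.05) for anti-PD1. Pim2 had genotype ratios of 1.12 (1.04 to 1.21) and 1.38 (1.28 to 1.49), and Socs3 of 1.29 (1.21 to 1.38) and 1.26 (1.18 to 1.35). In the CD45+ sort those of Socs3 were 1.12 (0.897 to 1.40) and 0.879 (0.745 to 1.04). In splenic CD8+ T cells of the CD8+ sort, Pim1 spanned 70.1 to 75.8 CPM over the same conditions. The genotype ratios there, in the order isotype and anti-PD1, were 1.41 (1.10 to 1.82) and 1.37 (1.09 to 1.73) for Cish. For Socs2 they were 1.75 (0.858 to 3.64) and 1.97 (0.997 to 4.01), from 15 to 25 UMIs per library. Those of Socs3 were 0.723 (0.652 to 0.801) and 1.15 (1.04 to 1.28), and those of Pim2 0.860 (0.806 to 0.917) and 0.906 (0.844 to 0.972). Of the members counted, 0 of 4 were past the fold under each antibody, where 6.3% and 7.29% of genes were.

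CD8+ T cells also occurred in the CD45+ sort, in separate libraries of the same pooled tumors. There Pim1 was at 164, 207, 155 and 278 CPM and Socs2 at 24.7, 14.1, 26.6 and 42.2 CPM, so the *Aire*-/- anti-PD1 library was highest for both genes in both sorts. The *Aire*-/- over *Aire*+/+ ratio under anti-PD1 was 1.35 (1.21 to 1.498) for Pim1, within the fold, and 2.998 (2.05 to 4.55) for Socs2. In *Aire*-/- mice anti-PD1 over isotype was 1.80 (1.61 to 2.01) for Pim1 and 1.58 (1.21 to 2.10) for Socs2. In *Aire*+/+ mice Socs2 went the other way, at 0.570 (0.336 to 0.960), from 29 and 35 UMIs. These were 2 of 5 and 1 of 5 members past the fold, where 8.69% and 9.81% of genes were. In the CD8+ sort these Socs2 ratios were within the fold, at 1.23 and 0.930. Immediate early genes summed to 5383, 6370.4, 5606 and 6639 CPM in the CD8+ sort, higher in both anti-PD1 libraries than in both isotype libraries, and cycling cells made up 29.9, 22.2, 21.5 and 19.3%. Macrophage markers summed to 11.8, 20.6, 29.4 and 36.6 CPM, led by C1qb. The ratio of their sum between genotypes under anti-PD1 was 1.77 in the CD8+ sort and 0.853 in the CD45+ sort. For anti-PD1 over isotype in *Aire*-/- mice it was 1.24 and 0.409. The summed cell cycle genes had genotype ratios under isotype of 0.926 and 1.53, in the same order of sorts. For anti-PD1 over isotype in *Aire*+/+ mice they had 0.978 and 1.55. The part of these genes and markers in the Pim1 and Socs2 ratios was not tested, other than by leaving out cycling cells. This gave 1.52 for Pim1 and 2.19 for Socs2 between genotypes under anti-PD1.

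Tumor Foxp3+ T cells, 36 to 129 per library, showed no member past the fold in any pair: 0 of 4 for genotype under isotype, where 18.1% of genes were, 0 of 4 under anti-PD1, where 12.4% were, 0 of 4 for anti-PD1 in *Aire*+/+ mice, where 11.7% were, and 0 of 4 in *Aire*-/- mice, where 15.0% were. Pim1 was at 512 (475 to 551), 583 (532 to 637), 635 (558 to 719) and 759 (691 to 832) CPM, highest in the *Aire*-/- anti-PD1 library as in NK and CD8+ T cells. Its genotype ratios were 1.24 (1.07 to 1.44) for isotype and 1.30 (1.14 to 1.48) for anti-PD1. The intervals of the ratios of Cish, Socs2 and Socs3 spanned 1 in every pair. Pim2 had under 50 UMIs in each pair and was not counted. Alternative settings moved the low counts of this class: the genotype ratio with anti-PD1 ran from 0.973 to 2.30 for Socs3, from 0.589 to 1.31 for Socs2 and from 1.25 to 1.71 for Pim1.

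In tumor macrophages Socs3 was lower in the *Aire*-/- libraries and Cish higher, although the direction of Cish under isotype depended on the settings. Socs3 was at 980.4 (966 to 995), 899.7 (882 to 917), 787 (768 to 807) and 588 (557 to 621) CPM, with intervals that do not overlap. Cish was at 24.5 (22.2 to 27.0), 23.9 (21.1 to 26.9), 31.0 (27.2 to 35.0) and 45.1 (36.8 to 54.8) CPM. Under anti-PD1 the *Aire*-/- over *Aire*+/+ ratio was 0.654 (0.617 to 0.693) for Socs3, 1.89 (1.49 to 2.38) for Cish and 0.652 (0.361 to 1.10) for Socs2, whose interval spans 1. That is 3 of 4 members past the fold, where 19.3% of the 8970 genes counted were and the median gene had a ratio of 0.932. Socs2, from 16 and 125 UMIs, reached the 50 UMIs only through the *Aire*+/+ anti-PD1 library, where it was higher. Without it, Socs3 and Cish were past the fold and Pim1 was not. When the CPM were rescaled by TMM factors 1 member was past the fold, Cish, and Socs3 and Socs2 were within it at 0.682 and 0.679. Under isotype 0 of 5 were past the fold between genotypes, where 9.08% of genes were, with Socs3 at 0.803 (0.780 to 0.827). Cish was at 1.26 (1.07 to 1.48) there, and between 0.889 and 1.38 under alternative settings.

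Anti-PD1 over isotype in *Aire*+/+ macrophages put 1 of 5 members past the fold, where 3.98% of genes were. This was Pim2 at 1.61 (1.02 to 2.56), from 42 and 39 UMIs, and its direction turned when cells were thinned to 2000 UMIs (ratio 0.374). In *Aire*-/- macrophages it put 0 of 4 past the fold, where 11.0% of genes were, with Socs3 at 0.747 (0.704 to 0.793). Pim1, abundant in macrophages, was at 479, 442, 489 and 482 CPM and had ratios within the fold in all 4 pairs. Socs1, the interferon-induced inhibitor, was higher in the *Aire*-/- libraries, where Socs3 was lower. It was at 101, 89.6, 185 and 211 CPM, with an *Aire*-/- over *Aire*+/+ ratio of 1.84 (1.71 to 1.97) for isotype and 2.35 (2.11 to 2.63) for anti-PD1.

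The makeup of the macrophage class differed between conditions as well. Its own markers summed to 17851, 20377, 15735 and 12945 CPM, and the 5 monocyte markers, led by Lyz2, to 3326, 3605, 4677 and 5811 CPM, so *Aire*-/- libraries had less of the former and more of the latter. Immediate early genes, led by Fos, summed to 23326, 21411, 19224 and 17759 CPM, in the same order of libraries as Socs3. Of the cell cycle genes, 8 of 10 were past the fold downward between genotypes under anti-PD1, with 11.0, 13.2, 9.92 and 8.99% of cells cycling, and without cycling cells the Socs3 ratio was 0.651 and that of Cish 1.74. The 8 NK markers, led by Klrk1 and with Ncr1 kept at 0 by the gate, summed to 49.5, 55.2, 103 and 118 CPM, and the CD8+ T cell markers, led by Cd8a and with the Cd3 genes kept at 0 by the gate, to 0.176, 0.263, 0.495 and 2.23 CPM, both highest in the *Aire*-/- anti-PD1 library. The *Aire*-/- anti-PD1 library held 178 macrophages against 494 to 1064 in the others. Apart from the cycling cells, the part of each in the Socs3 and Cish ratios was not tested.

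**Figure D2:**
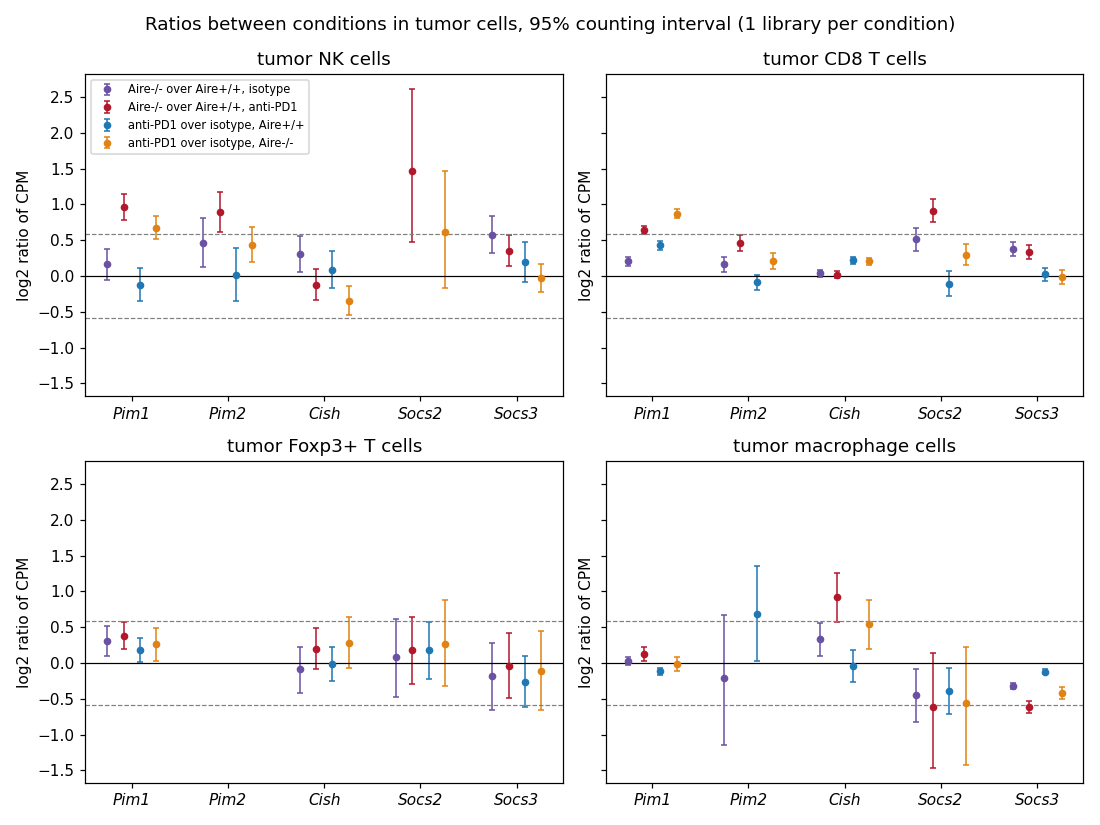
Log2 ratio of CPM between conditions for the members with at least 50 UMIs over the pair, in 4 tumor classes, with conditional exact 95% intervals as bars (counting error only) and dashed lines at 1.5-fold. Pim1 lies above 1.5-fold between genotypes under anti-PD1 in NK and CD8+ T cells of the CD8+ sort, and Socs3 lies below in macrophages, on CPM without TMM rescaling.

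Between genotypes under anti-PD1, 0 of 11 JAKs and STATs and 0 of 13 inhibitors were past the fold in tumor CD8+ T cells, while 5 of the 7 cytokines counted were, 2 upward and 3 downward, and 5.02% of all genes were. In the CD45+ sort 2 of 4 cytokines counted were, both upward, where 9.68% of all genes were, and Csf2 had opposite directions, at 0.504 (0.460 to 0.551) in the CD8+ sort and 3.43 (2.39 to 5.08) in the CD45+ sort. In the CD8+ sort Egr1 and Fos were, among the 16 immediate early genes. In NK cells Ifng had an *Aire*-/- over *Aire*+/+ ratio of 0.448 (0.381 to 0.527) for isotype and 1.71 (1.44 to 2.04) for anti-PD1, opposite directions, and 2 of 11 JAKs and STATs were past the fold under isotype and 0 of 11 under anti-PD1, where 12.6% and 9.02% of all genes were. Of the other STAT targets in NK cells, Bcl2l1 had genotype ratios of 0.503 (0.272 to 0.911) for isotype and 1.72 (1.14 to 2.66) for anti-PD1, and Myc was at 0.610 (0.503 to 0.739) with anti-PD1. In macrophages Jak2 had genotype ratios of 1.61 (1.43 to 1.81) for isotype and 2.02 (1.70 to 2.39) for anti-PD1. Under isotype 3 of 11 JAKs and STATs, 1 of 12 inhibitors and 3 of 18 receptors counted in macrophages were past the fold upward and none downward, where 9.08% of all genes were in either direction. Under anti-PD1 these lists gave 1 of 11, 1 of 12 and 2 of 18 upward, and 1 inhibitor downward, where 19.3% of all genes were.

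Across 48 sums of a class in a library (NK, CD8+ T, Foxp3+ T, macrophage, other CD4+ T and B cells), the genes whose levels ran most like a member were found by Pearson correlation of log2(CPM + 10) among 5636 genes. These sums share libraries and tissues, so the values describe a pattern and carry no test. Cish ran most like Tnfrsf9 (r = 0.947), which encodes the costimulatory receptor 4-1BB, and Stat3 (r = 0.940). Socs2 ran most like Il2ra (r = 0.916), and Pim1 most like Snx18 (r = 0.913) and Gm14005 (r = 0.910), with Bcl2l1 (r = 0.898) next. Pim2 ran most like Bcl2 (r = 0.875), and Socs3 most like Rnf149 (r = 0.918) and Irf7 (r = 0.895), with Cebpb (r = 0.887), a myeloid transcription factor, next. Among the members, Cish and Socs2 ran together (r = 0.790), as did Pim1 and Socs3 (r = 0.733), and Pim2 had negative r with the others (−0.480 with Pim1, −0.478 with Socs2, −0.531 with Socs3 and −0.253 with Cish).

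The 5 genes lie on different chromosomes in RefSeq on GRCm38.p6: Pim1 at chr17:29490785-29496111, Pim2 at chrX:7878306-7883432, Cish at chr9:107296659-107302784, Socs2 at chr10:95383903-95417321 and Socs3 at chr11:117966079-117970336. Socs2 is on the chromosome of Aire, 17.3 Mb from it. STAT dimers bind a motif of TTC, any 3 bases and GAA, which reads the same on both strands. It was searched in the RefSeq promoters of 4 of the 5 members, all but Socs2, from 250 bases before to 50 after each start. Of 32817 such promoters 8.29% held the motif and 0.457% held 2 or more. Cish held 2, at bases 1 to 9 and 12 to 20 from the start, and Socs3 held 1, from 154 bases before the start in that table, which lies inside the Socs3 span given above. Pim1, with 2 promoters in the table, and Pim2 held 0. A match is a description of these letters. The part of the motif in the tissue differences was not tested. The stretches around the matches are shown for the members that held any. They read 5′ to 3′ with the motif in capitals, Cish from chr9:107296629-107296688 on the plus strand and Socs3 from chr11:117969482-117969550 on the minus strand.
Cish: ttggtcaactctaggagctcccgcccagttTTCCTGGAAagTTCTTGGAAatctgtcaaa
Socs3: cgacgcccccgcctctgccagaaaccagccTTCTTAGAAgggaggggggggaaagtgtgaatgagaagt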

How the data were processed

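The authors deposited UMI counts per gene and cell barcode, as whole numbers without normalization, counted on GRCm38. Rows were summed by symbol, and cells with at least 200 genes and at most 20% mitochondrial UMIs were kept. Gates on UMIs were: NK, at least 2 of Ncr1 and Klrb1c; CD8+ T, Cd3 and Cd8 without Cd4 or Foxp3; Foxp3+ T, Foxp3 and Cd3 without Cd8; macrophage, at least 10 of C1qa, C1qb and C1qc with Csf1r or Adgre1. Cells with markers of the other lineages were left out, no doublet caller was run, and 1 cell met the gates of 2 classes. UMIs were summed per class and library. Tumor and spleen were compared with edgeR (filterByExpr, TMM, quasi-likelihood F test, condition as block, Benjamini-Hochberg over all genes tested, called at adjusted p under 0.05) over 8 libraries per class. Cycling cells had at least 2 UMIs over Mki67, Top2a, Birc5 and Cdk1. Genes named are the 5 members, the pathway lists and the 5 genes most like each member. Members and lists were chosen with earlier results of these data known.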

Additional observations from a re-analysis of the deposited data

Results flagged for a closer look

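A single library stood apart from the other 3 in 4 groups, by a gap whose share of the whole range over the 4 conditions passed Dixon's 95% value. Of the 35 groups examined, chance alone passes about 1 in 20. Cish in splenic Foxp3+ T cells was 205 CPM in the *Aire*+/+ anti-PD1 library and 87.2 in the next highest, a gap of 0.917 of the range. Pim1 in splenic CD8+ T cells was 70.1 CPM in the *Aire*+/+ anti-PD1 library, with the others between 75.6 and 75.8 (gap 0.961). Pim2 in tumor Foxp3+ T cells was 24.8 CPM in the *Aire*-/- anti-PD1 library, from 15 UMIs, against 7.83 in the next (gap 0.846). Socs3 in splenic Foxp3+ T cells was 93.5 CPM in the *Aire*-/- anti-PD1 library, from 23 UMIs, against 56.4 in the next (gap 0.836).

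Pim2 in CD8+ T cells of the CD8+ sort had genotype effects of opposite sign in the 2 tissues. Tumor log2 ratios (*Aire*-/- over *Aire*+/+) were 0.16 for isotype and 0.46 for anti-PD1, and −0.22 and −0.14 in spleen. The mean difference between the tissues was 0.49 and was not tested. In the CD45+ sort the opposite signs did not recur with anti-PD1, with log2 ratios of 0.01 and 0.25 in tumor and −0.66 and 0.09 in spleen. It was the 1 case among 14 pairs of contrasts examined.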

How the results depend on the processing

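Under the alternatives, 139 tissue values kept direction and call, 3 became stronger and 4 reversed. The calls of all 5 members in CD8+ T cells held under all 12 alternatives run (Cish 4.59 to 5.05, Socs2 3.52 to 4.63, Pim1 0.999 to 1.55, Socs3 0.36 to 0.76, Pim2 −1.16 to −0.69), as did Cish and Socs3 in NK cells under 11 (3.57 to 4.33 and 2.06 to 3.50) and the 4 members in Foxp3+ T cells wherever they were tested. The alternatives were DESeq2, no low-count filter, no block, each condition left out, cells thinned to 2000 UMIs, a stricter gate, cycling cells left out, the CD45+ sort for CD8+ T cells and, chosen after seeing the data, library totals without TMM. Pim1 in NK cells was −0.28 (edgeR adjusted p = 0.104) without TMM, −0.044 to 0.23 with a condition left out (lowest without *Aire*-/- anti-PD1), 0.45 (adjusted p = 0.0197) thinned and 0.48 (adjusted p = 0.00275) without cycling cells. Pim2 in NK cells was −0.54 (adjusted p = 0.00693), 0.58 (called higher) and 0.14 (adjusted p = 0.505) under no TMM, thinning and cycling cells out. The counts of members became 1 lower in NK cells without TMM, 4 higher in NK cells thinned, and 2 higher in Foxp3+ T cells thinned, where 2 members were tested. The cause was not tested.

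Between conditions, 107 counts of members past the fold stayed the same and 33 moved, 540 ratios stayed within the interval reported and 77 moved out of it. Ratios within the fold also changed sign in places. Of the ratios past the fold, 1 changed sign: Pim2 between treatments in *Aire*+/+ macrophages, log2 −1.42 when thinned. In NK cells genotype under isotype gave 1 when thinned, TMM-scaled or averaged over cells; genotype under anti-PD1 gave 1 at 2-fold; anti-PD1 in *Aire*-/- mice gave 1 under the stricter gate, without the largest cells, without cycling cells and averaged over cells, and 0 thinned and at 2-fold. In CD8+ T cells, genotype under anti-PD1 gave 1 thinned, 1 in the CD45+ sort and 0 at 2-fold; anti-PD1 gave 1 in *Aire*+/+ mice and 2 in *Aire*-/- mice in the CD45+ sort, and 0 in *Aire*-/- mice at 2-fold. In Foxp3+ T cells, genotype gave 1 under isotype without the largest cells, and 1 under anti-PD1 thinned, without cycling cells and averaged over cells; anti-PD1 gave 1 in *Aire*+/+ mice thinned and without cycling cells, and 1 in *Aire*-/- mice thinned, without the largest cells and averaged over cells. In macrophages, genotype gave 1 TMM-scaled and 0 at 2-fold under anti-PD1; anti-PD1 gave 0 at 2-fold in *Aire*+/+ mice and 1 in *Aire*-/- mice under the stricter gate, TMM-scaled and averaged over cells. The cause was not tested. Depth limits Socs2 in NK cells and Pim2 in Foxp3+ T cells and macrophages, each with under 55 UMIs per library. Splenic counts were low for other members too, with 2 to 5 UMIs of Cish and 7 to 13 of Socs3 per NK library.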

Other observations

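Tumor CD8+ T cells were also divided by single genes, chosen after values were seen. Cells with a UMI of Tcf7, a transcription factor of memory-like and naive T cells, numbered 207 to 361 per library. They held 176, 209.8, 214 and 201 CPM of Socs3, against 42.2, 47.4, 59.5 and 64.2 in cells without. Cish ran the other way, at 114, 139, 109.98 and 141 CPM in cells with Tcf7 and 260.2, 293, 265 and 299 without. Socs2 did so too, at 8.53, 12.8, 6.31 and 8.29 CPM with Tcf7 and 23.2, 20.4, 33.5 and 40.3 without. Pim2 was 106, 95.1, 73.7 and 129.9 CPM with Tcf7 and 41.6, 42.9, 54.1 and 58.4 without. Pim1 was highest in the *Aire*-/- anti-PD1 library in cells with Tcf7 (148, 221, 158 and 341 CPM) and without it (132, 178, 155 and 277 CPM). Cells with a UMI of Havcr2, a checkpoint receptor of exhausted T cells, had 29.5, 32.7, 46.0 and 53.9 CPM of Socs3 against 96.1, 107, 119 and 111 without. The groups differ in depth, with median UMIs per cell of 9669, 8806, 8843 and 7043 with Tcf7 and 11166, 10364.5, 10136 and 9133 without, and 13358, 12046, 11247 and 10898 with Havcr2 and 9286, 8697, 8750 and 6968 without. A count of 0 UMIs does not show that a cell lacks the gene's RNA, and no test was run between the groups.

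CD4+ T cells without Foxp3 held 212 to 389 CPM of Cish in tumor and 27.3 to 34.2 in spleen, and splenic B cells 1.04 to 1.92.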
